A study of Mus musculus with 10 samples.

Results

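The collagen gene family was taken as every gene whose symbol in the count tables is Col, a number, a and a number, that is, the genes for collagen alpha chains. This rule found 44 genes among the 35667 in each table: 11 fibrillar, 9 network-forming, 9 FACIT (fibril-associated collagens with interrupted triple helices), 6 beaded-filament, 2 multiplexin, 4 transmembrane and 1 anchoring-fibril gene, and 2 that were put in no class. The data were RNA sequencing counts from whole mouse aorta, 5 libraries titled as Ovgp1 knockout (KO) and 5 titled as wild type (WT), all on C57BL/6 at 12 weeks of age. Ovgp1 encodes oviductal glycoprotein 1, and the series title links it to vascular remodelling and hypertension. The genotype field names Ovgp1 for KO replicate 1, like the title, and Ovgp2 to Ovgp5 for KO replicates 2 to 5. The labels name no allele and do not say that libraries came from separate animals, so the p-values measure the spread between these libraries, which may be technical.

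Collagens are extracellular proteins whose chains wind into a triple helix, and the helix needs glycine at the start of each Gly-X-Y triplet. In the artery wall, types I and III build the tensile fibrils of media and adventitia, type V sets fibril diameter, and type IV forms the basement membrane around smooth muscle cells and under the endothelium. Type VI forms beaded filaments close to cells, and types XV and XVIII are proteoglycan-bearing collagens of basement membrane zones. FACITs such as types XII and XIV sit on fibril surfaces.

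The class names were taken from a fixed list, and the repeats in the coding sequences of the annotated transcripts set the fibrillar class apart. Other classes overlapped in their longest series: 32 to 113 triplets for FACITs, 39 to 66 for network-forming and 37 to 87 for beaded-filament genes. In 9 of the 11 fibrillar genes an unbroken series of more than 300 glycine-led codon triplets was found, the longest being 344 in Col3a1, and Col24a1 and Col27a1 had 216 and 217. All 11 fibrillar genes had a median exon length of 54 bases. Over the whole family 18 genes had this median, among them the FACIT gene Col16a1 and the transmembrane gene Col23a1. Exon length therefore did not set the fibrillar class apart. The 6 type IV genes carried 39 to 66 triplets in the longest series and were broken into 23 to 27 series each. Both multiplexins had at most 30 triplets in a row, with 30.4% of codons in triplets for Col18a1 and 26.6% for Col15a1. In Col14a1, a FACIT, triplets covered 13.8% of the coding sequence, and over the 9 FACIT genes the share ran from 8.1% to 85.6%.

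**Figure D1:**
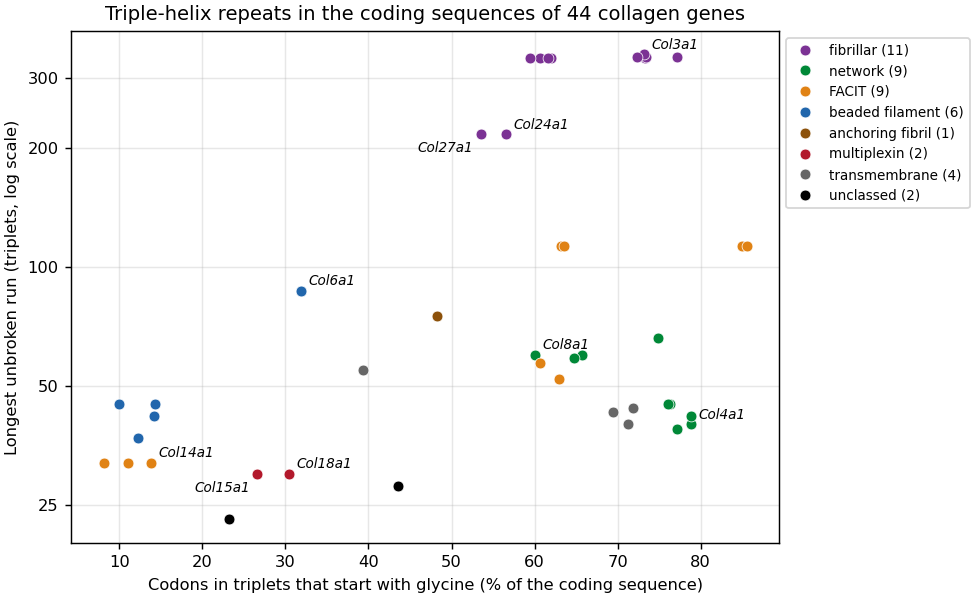
Each point is 1 of the 44 collagen genes, placed by the share of its codons that lie in glycine-led triplets (horizontal axis, %) and by its longest unbroken series of triplets (vertical axis, log scale), with the class as colour and the number of genes in brackets. The fibrillar genes sit at 216 to 344 triplets, above the 23 to 113 of every other class.

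Several type IV genes lie head to head, so that neighbours on opposite strands start close together. The annotated starts of Col4a1 and Col4a2 were 21 bases apart on chromosome 8, those of Col4a3 and Col4a4 were 72 apart on chromosome 1, and those of Col4a5 and Col4a6 were 1309 apart on chromosome X. Start regions (250 bases before to 50 bases after the start, mouse GRCm38.p6, from RefSeq) are given for both genes of 2 such pairs, because their levels are compared with each other below, and for Col3a1 and Col8a1, which were higher in the libraries labelled KO. Capitals mark the letters CCAAT (the CCAAT box), the letters GGGCGG (the GC box bound by Sp1 and its relatives) and the letters TATAAA (the TATA box). Each was sought on either strand. The window of Col4a4, which was also higher in the libraries labelled KO, is not printed and held none of these matches.

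Col4a1, chr8:11312777-11313076, minus strand: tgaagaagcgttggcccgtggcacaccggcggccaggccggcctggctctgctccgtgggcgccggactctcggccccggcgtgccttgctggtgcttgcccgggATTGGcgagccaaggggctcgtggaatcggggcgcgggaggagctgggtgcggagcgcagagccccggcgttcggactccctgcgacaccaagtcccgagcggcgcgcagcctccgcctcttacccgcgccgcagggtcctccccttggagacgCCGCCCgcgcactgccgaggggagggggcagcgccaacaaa
Col4a2, chr8:11312555-11312854, plus strand: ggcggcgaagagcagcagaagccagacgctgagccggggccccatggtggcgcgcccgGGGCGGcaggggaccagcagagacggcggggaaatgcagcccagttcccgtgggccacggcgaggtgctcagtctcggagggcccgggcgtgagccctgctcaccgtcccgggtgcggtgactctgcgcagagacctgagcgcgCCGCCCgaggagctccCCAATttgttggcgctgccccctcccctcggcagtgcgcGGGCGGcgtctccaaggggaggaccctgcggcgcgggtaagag
Col4a5, chrX:141475169-141475468, plus strand: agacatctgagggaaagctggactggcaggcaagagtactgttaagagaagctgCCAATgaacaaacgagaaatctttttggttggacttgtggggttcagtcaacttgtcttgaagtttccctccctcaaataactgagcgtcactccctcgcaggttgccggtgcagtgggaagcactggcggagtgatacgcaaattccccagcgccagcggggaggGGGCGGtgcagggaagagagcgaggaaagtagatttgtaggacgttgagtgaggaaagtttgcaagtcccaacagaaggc
Col4a6, chrX:141474027-141474326, minus strand: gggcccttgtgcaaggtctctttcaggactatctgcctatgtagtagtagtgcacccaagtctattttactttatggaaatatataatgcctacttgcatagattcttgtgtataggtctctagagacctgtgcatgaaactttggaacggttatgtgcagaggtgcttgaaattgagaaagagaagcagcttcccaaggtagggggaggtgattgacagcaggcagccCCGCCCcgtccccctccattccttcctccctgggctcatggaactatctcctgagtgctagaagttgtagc
Col3a1, chr1:45311288-45311587, plus strand: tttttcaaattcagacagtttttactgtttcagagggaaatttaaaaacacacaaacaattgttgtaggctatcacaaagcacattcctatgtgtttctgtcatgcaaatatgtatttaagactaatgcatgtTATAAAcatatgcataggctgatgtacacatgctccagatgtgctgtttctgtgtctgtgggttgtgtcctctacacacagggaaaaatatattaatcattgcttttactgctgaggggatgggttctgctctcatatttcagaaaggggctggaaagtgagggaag
Col8a1, chr16:57754688-57754987, minus strand: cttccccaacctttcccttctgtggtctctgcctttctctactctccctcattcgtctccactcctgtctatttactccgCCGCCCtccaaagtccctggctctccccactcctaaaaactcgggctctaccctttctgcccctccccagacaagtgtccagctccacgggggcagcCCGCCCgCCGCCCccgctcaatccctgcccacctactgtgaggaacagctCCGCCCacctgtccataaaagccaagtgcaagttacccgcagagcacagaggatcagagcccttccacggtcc

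RefSeq windows were matched to 35 collagen genes by symbol, with 38 windows in all, and Col4a3 was not among them. The Col4a1 and Col4a2 windows share 78 bases, and the GGGCGG that starts 8 bases into Col4a2 is the same stretch as the one read on the opposite strand of Col4a1. A CCAAT lies 32 bases before the Col4a2 start, and another lies 145 bases before the Col4a1 start on the opposite strand. Col8a1 carries 4 GGGCGG matches between 170 and 23 bases before its start. Col3a1 carries none, and its single match is a TATAAA that begins 117 bases before the start. Over 32851 windows of the same length, 35.66% held GGGCGG, 37.41% CCAAT and 13.62% TATAAA, and of the 38 collagen windows 23, 13 and 5 did. These are letter matches and do not show that any factor binds.

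Library totals were 24434745 to 26694590 counts in the KO group and 21242030 to 24396394 in the WT group. Ovgp1 itself went against the labels: it stood at 17.8 to 21.9 CPM (reads of a gene scaled to the size of its library) in the 5 libraries labelled KO and at 1.98 to 4.69 CPM in the 5 labelled WT. The files do not show which part of the gene these reads cover. KO and WT are therefore used below as the labels of the libraries, not as a genotype checked in these data. The 5 KO libraries were far more alike than the 5 WT libraries, with a biological coefficient of variation of 2.83% against 21.2%. A chi-square statistic per degree of freedom, which is 1 for counting error alone, was 1.77 to 3.25 between pairs of KO libraries over 12509 genes and 11.03 to 154 between pairs of WT libraries. A second fit therefore summed the 5 KO libraries into 1 sample, so that only the WT libraries set the error. Values are from the fit of 5 against 5 unless the second is named. WT replicates 1 and 3 also stood apart, with 16.2% and 13.2% of counts from mitochondrial genes against 6.75% to 9.59% in the other 8. Smooth muscle markers were abundant, with Acta2 at 14720 to 25020 CPM and Myh11 at 7229 to 9701 CPM in the WT libraries, but Tagln was at only 22.3 to 29.3 CPM.

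Collagen genes took 0.688% to 0.833% of all counts, and 3 genes supplied much of that. Col18a1, Col1a2 and Col3a1 together held 36.6% to 42.5% of the collagen CPM in each library, and the 8 most abundant genes by CPM held 74.0% to 79.4%. Of the 44 genes, 31 had a mean of at least 1 CPM over the 10 libraries and 13 were below it. The filter on low counts kept 35 for testing. The 9 that did not pass it were Col2a1, Col6a4, Col9a1, Col9a2, Col10a1, Col17a1, Col24a1, Col25a1 and Col26a1, with 0 to 17 counts in any library. Of these, 5 had at least 1 count in every library. The other 4 (Col9a2, Col24a1, Col25a1 and Col26a1) were at 0 in some libraries, where a count of 0 allows up to 3 counts, or 0.112 to 0.141 CPM at these depths. Col2a1 and Col9a1, chains of cartilage collagens, had at most 8 and 9 counts, and Col10a1, made by hypertrophic cartilage, had at most 17.

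Levels of different genes were set side by side as CPM per kilobase of the longest coding transcript. In the WT libraries Col18a1 led at 221 ± 46.1 (SD, n = 5), followed by Col1a2 at 193 ± 14.5, Col6a1 at 166 ± 7.24, Col6a2 at 165 ± 14.4 and Col3a1 at 143 ± 17.3. These neighbours in the order lie within 1 or 2 SD of each other, by the larger SD of each pair. With exonic length as the divisor Col1a2 moved from rank 2 to rank 4, Col4a1 from 6 to 3 and Col6a2 from 4 to 6. Next came Col4a1 at 109 ± 16.1, Col4a2 at 77.6 ± 12.2, Col1a1 at 62.5 ± 14.3 and Col15a1 at 43.96 ± 8.84. A gap separated the 15 most abundant genes from the rest: Col5a1 was 15th at 23.1 ± 4.88 and Col4a4 16th at 4.20 ± 0.335. In the KO libraries Col3a1 stood at 183 and Col1a2 at 195 CPM per kilobase, and Col1a1 at 49.3.

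**Figure D2:**
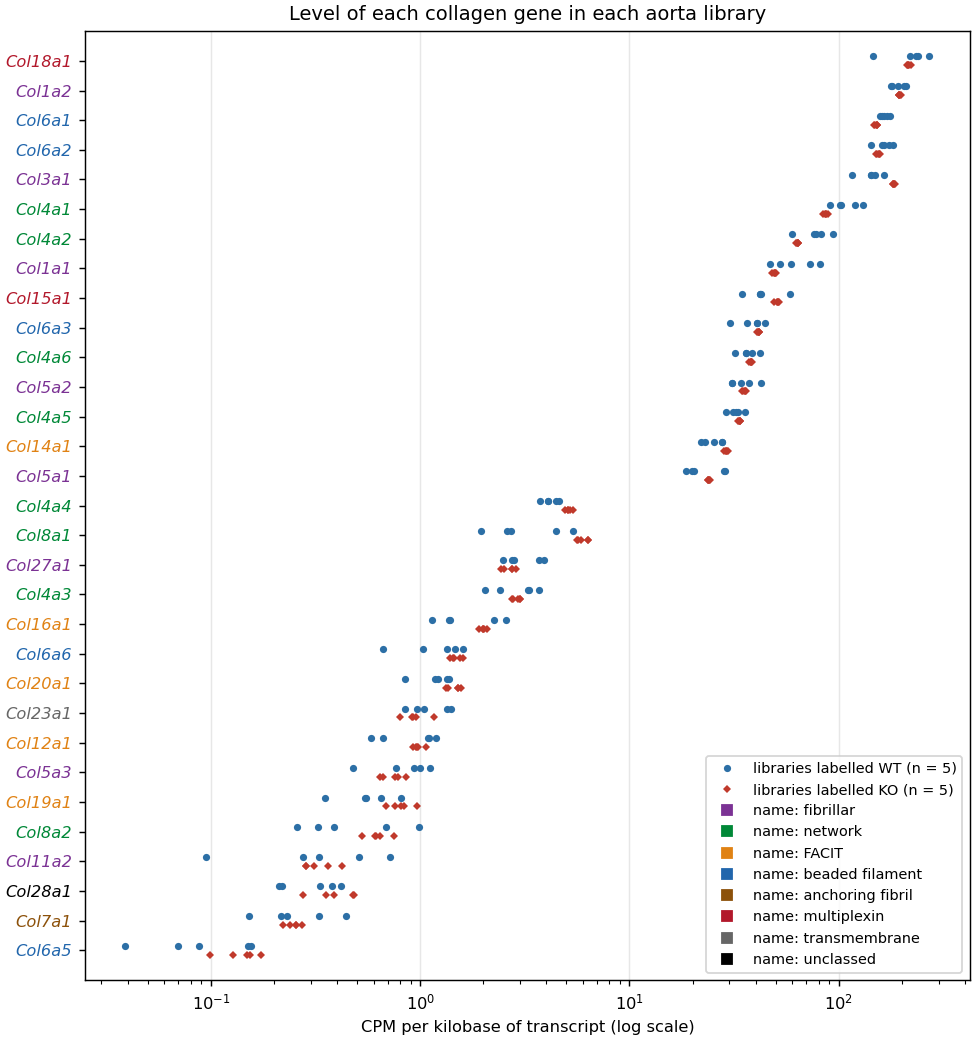
CPM per kilobase of transcript (horizontal log axis) of the 31 collagen genes with a mean of at least 1 CPM, ordered by their WT mean, with 1 circle per WT library and 1 diamond per KO library and the gene name coloured by class. The diamonds of each gene lie close together, and those of Col3a1, Col4a4, Col8a1 and Col14a1 lie above all circles.

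Among the 35 collagen genes tested with the KO libraries as 5 samples, Col3a1, Col4a4 and Col8a1 were higher and Col4a1 was lower in the libraries labelled KO (edgeR quasi-likelihood test, Benjamini-Hochberg adjusted p under 0.05 over 15710 genes). That is 8.57% of the tested collagens higher and 2.86% lower, where 6.84% of all genes tested were higher and 7.43% lower, so 11.4% were called in either direction against 14.3% of all genes. The share of collagens called was thus near that of genes in general. The median log2 difference (KO minus WT) was 0.06 over the 35 collagens and -0.02 over all genes tested. With the KO libraries as 1 sample, edgeR called 0 of the 35 collagens, and 0 reached an unadjusted p under 0.05; the adjusted p was 0.9994 or higher for each of the 35. That fit called 7 of 15710 genes, or 0.0446%, and 585 genes had an unadjusted p under 0.05. No other tool was run for that fit. In 4 collagen genes (Col3a1, Col4a4, Col8a1, Col14a1) all 5 KO libraries were above all 5 WT libraries, and in 2 (Col4a1, Col6a1) all 5 were below, while 29 overlapped. Over all genes tested, 7.38% were wholly above and 7.22% wholly below. Leaving out WT replicates 1 and 3, 11 of the 35 were higher and 2 lower, or 31.4% and 5.71%, where 13.7% and 13.6% of 16100 genes were. Apart from Col3a1, Col4a4 and Col14a1, each of the 11 was a gene for which these replicates were the top pair of the WT libraries. For the 2 lower genes, Col4a1 and Col4a3, they were the bottom pair.

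**Figure D3:**
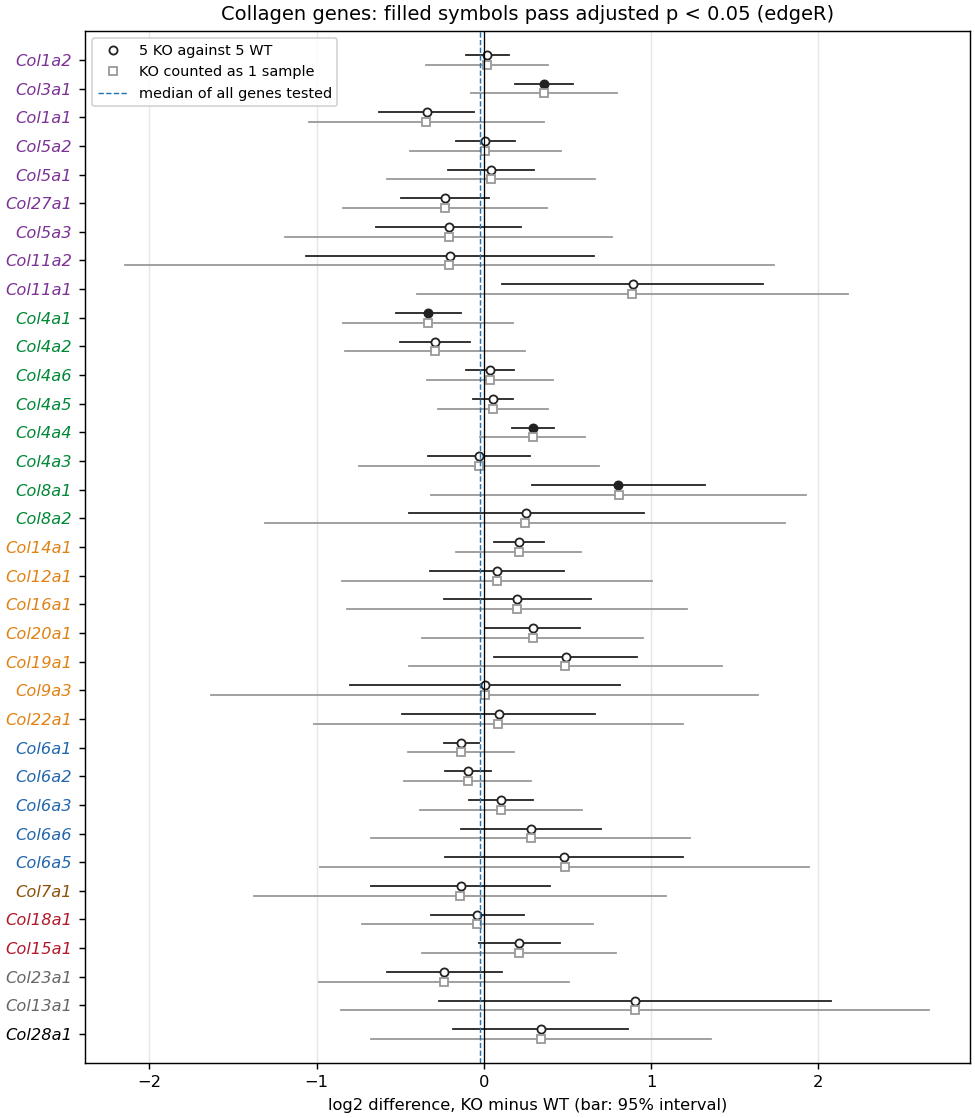
Log2 difference (KO minus WT) with its 95% interval for the 35 collagen genes tested, grouped by class, with circles for the fit of 5 KO against 5 WT libraries, squares for the fit with the KO libraries as 1 sample, and filled symbols past the threshold. The 4 filled circles are Col3a1, Col4a4, Col8a1 and Col4a1, no square is filled, and the grey intervals are wider at the same estimates.

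Of the 9 fibrillar genes tested, Col3a1 passed the threshold. Col3a1, the chain of type III collagen, stood at 1031, 1011, 1006, 1025 and 1024 CPM in KO replicates 1 to 5 and at 911, 647, 790, 831 and 792 CPM in WT replicates 1 to 5. All KO libraries exceeded all WT libraries, with WT replicate 1 the closest and WT replicate 2 the farthest. The means were 1019 ± 10.7 and 794 ± 96.0 CPM (SD, n = 5 each), a log2 difference of 0.36 (SE 0.08, edgeR adjusted p = 0.0117), or 1.28-fold with a 95% interval of 1.14 to 1.445. With the KO libraries as 1 sample the log2 difference was again 0.36, with SE 0.19 and adjusted p = 0.999.

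Neither type I chain passed the threshold. Col1a1, the chain present in duplicate in most type I molecules, was at 294, 285, 298, 292 and 294 CPM in the KO libraries and at 481, 351, 433, 277 and 312 CPM in the WT libraries. WT replicates 1 and 3 were the highest and WT replicate 4 fell below every KO library, so the groups overlapped. KO minus WT was -0.34 on the log2 scale (SE 0.13, edgeR adjusted p = 0.102), and without WT replicate 4 it was -0.43 with adjusted p = 0.0218. Without WT replicate 1 it was -0.22, and without WT replicates 1 and 3, the highest libraries, it was -0.09 (adjusted p = 0.3795). Col1a2, the partner chain, was at 1039 to 1059 CPM in the KO libraries and at 1124, 1024, 1091, 946 and 964 CPM in the WT libraries, on both sides of the KO range. Its log2 difference was 0.02 (SE 0.06, edgeR adjusted p = 0.852), with a 95% interval in fold of 0.929 to 1.11.

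The type V chains, which join type I in mixed fibrils, also overlapped. Col5a1 was at 199 to 203 CPM in the KO libraries and at 241, 157, 238, 167 and 171 CPM in the WT libraries, where replicates 1 and 3 stood above the KO range and the other 3 below it. Col5a2 was at 229 to 238 CPM in the KO libraries and at 225, 204, 206, 281 and 246 CPM in the WT libraries, with replicate 4 highest. The log2 differences were 0.04 and 0.01. Col5a3, Col27a1 and Col11a2 had means of 5.24, 23.8 and 2.09 CPM in the WT group and log2 differences of -0.21, -0.23 and -0.20, none past the threshold. Col11a1, at 4 to 25 counts per library, differed by 0.89 on the log2 scale (SE 0.36, edgeR adjusted p = 0.1198). Over these 9 genes, 5 log2 differences were positive and 4 negative.

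The fibroblast marker sum, too, was above the WT range in every KO library. Of 10 listed genes 6 were higher (Dcn, Gsn, Lum, Dpt, Cd34 and Scara5), against 6.84% of all genes tested, 4 did not pass (Pdgfra, Pi16, Tcf21 and Clec3b), none was at 0, and their summed level was 5047 to 5136 CPM in the KO libraries and 3660 to 4423 CPM in the WT libraries, without overlap. In the fit with the KO libraries as 1 sample edgeR called 0 of the 10, and 3 had an unadjusted p under 0.05. Most of the sum was Gsn, at 1964 CPM in the WT and 2366 CPM in the KO mean, and Dcn, at 1188 and 1528 CPM. Lum was at 155 CPM in the WT and 277 CPM in the KO mean, while Pdgfra was at 83.2 CPM in the WT and 80.2 CPM in the KO mean. Lum and Dcn encode small proteoglycans that bind collagen fibrils. Among the WT libraries the order was opposite at the ends: the fibroblast sum was lowest in replicate 1 and highest in replicate 2, where Col3a1 was highest and lowest. The part of the fibroblast markers in the Col3a1 result was not tested, and in whole tissue a larger number of cells of a type and more RNA per cell cannot be told apart. Smooth muscle markers overlapped, at 36490 to 37140 CPM in sum against 26600 to 40300 CPM, with 1 of 8 (Tagln) lower.

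**Figure D4:**
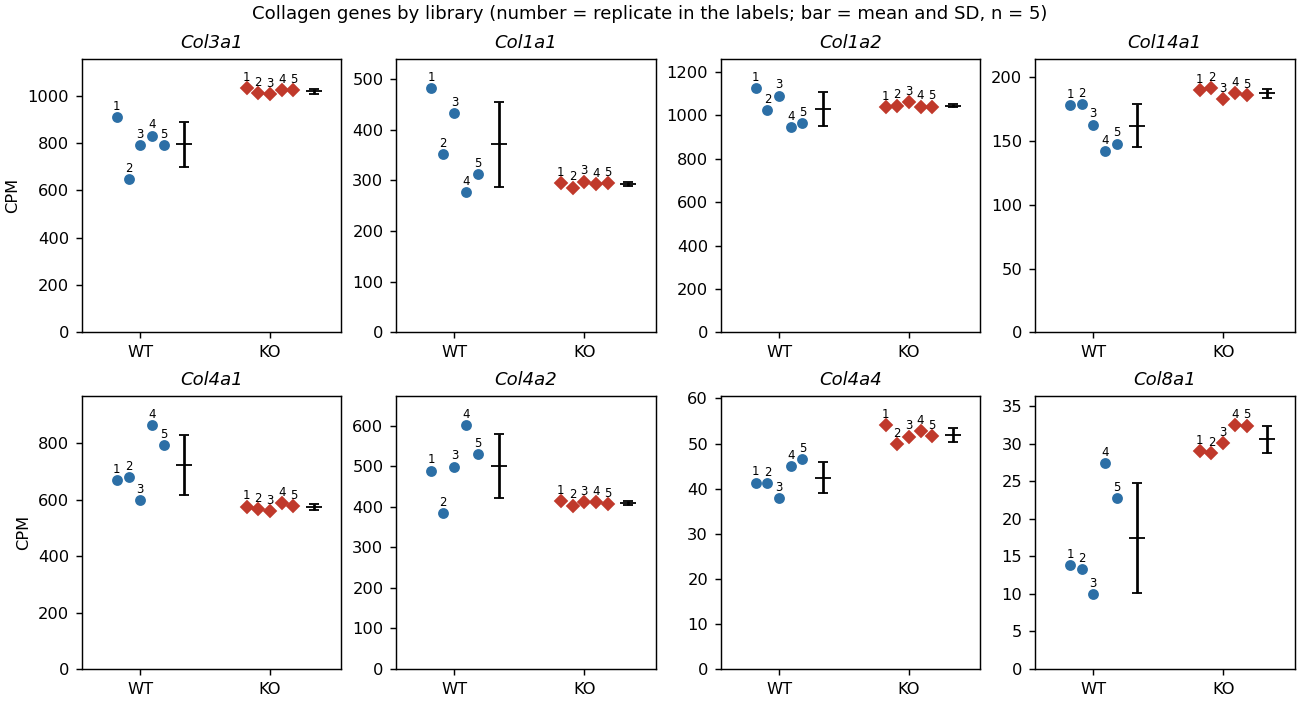
CPM (linear axis from 0) of 8 collagen genes in each library, with the replicate number beside each point and the mean and SD of 5 libraries as a bar. The WT points spread widely and the KO points hardly at all, and for Col1a1 the WT libraries numbered 1 and 3 stand highest while number 4 lies below the KO points.

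Ratios between chains within a library need no scaling between libraries, and 5 were tested with two-sided exact permutation tests on the log2 ratio of CPM per kilobase, adjusted over the 5. Col3a1 to Col1a1 was 3.74, 3.77, 3.60, 3.74 and 3.71 in the KO libraries and 2.02, 1.96, 1.95, 3.19 and 2.71 in the WT libraries. The groups did not overlap, with WT replicate 4 the nearest, and the log2 difference was 0.68 (exact p = 0.00794, the smallest that 5 against 5 allows, adjusted p = 0.0198). Col1a1 to Col1a2 was 0.255, 0.246, 0.253, 0.253 and 0.255 in the KO libraries and 0.386, 0.309, 0.357, 0.264 and 0.292 in the WT libraries. These did not overlap either, at a log2 difference of -0.34 (exact p = 0.00794, adjusted p = 0.0198). Both ratios contain Col1a1, so they are not independent. With the KO libraries as 1 sample no exact test was informative, because 1 against 5 allows no p below 0.167. Without WT replicates 1 and 3 the log2 differences of these ratios were 0.53 and -0.19, the second over 1.5 times smaller. Col3a1 to Col5a2, given without a test, was 5.05 to 5.34 in the KO libraries and 3.52 to 4.82 in the WT libraries.

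The remaining tested ratios overlapped between groups. Col4a1 to Col4a2 was 1.32 to 1.40 in the KO libraries and 1.17 to 1.73 in the WT libraries (adjusted exact p = 0.794). Col5a1 to Col5a2 was 0.662 to 0.692 against 0.467 to 0.911 (adjusted exact p = 0.802), with WT replicates 1 and 3 the highest. Col6a1 to Col6a2 was 0.973 to 0.983 against 0.969 to 1.100 (adjusted exact p = 0.225). Leaving out WT replicates 1 and 3, the log2 differences of the type IV and type V ratios were -0.16 and 0.33, each with adjusted exact p = 0.0446. For the type V ratio these replicates, at 0.843 and 0.911, were the only WT libraries above the KO range. For the type IV ratio, at 1.33 and 1.17, they were the only WT libraries not above it. Leaving them out thus fixed a full separation of the groups, and no conclusion is drawn from these p-values.

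**Figure D5:**
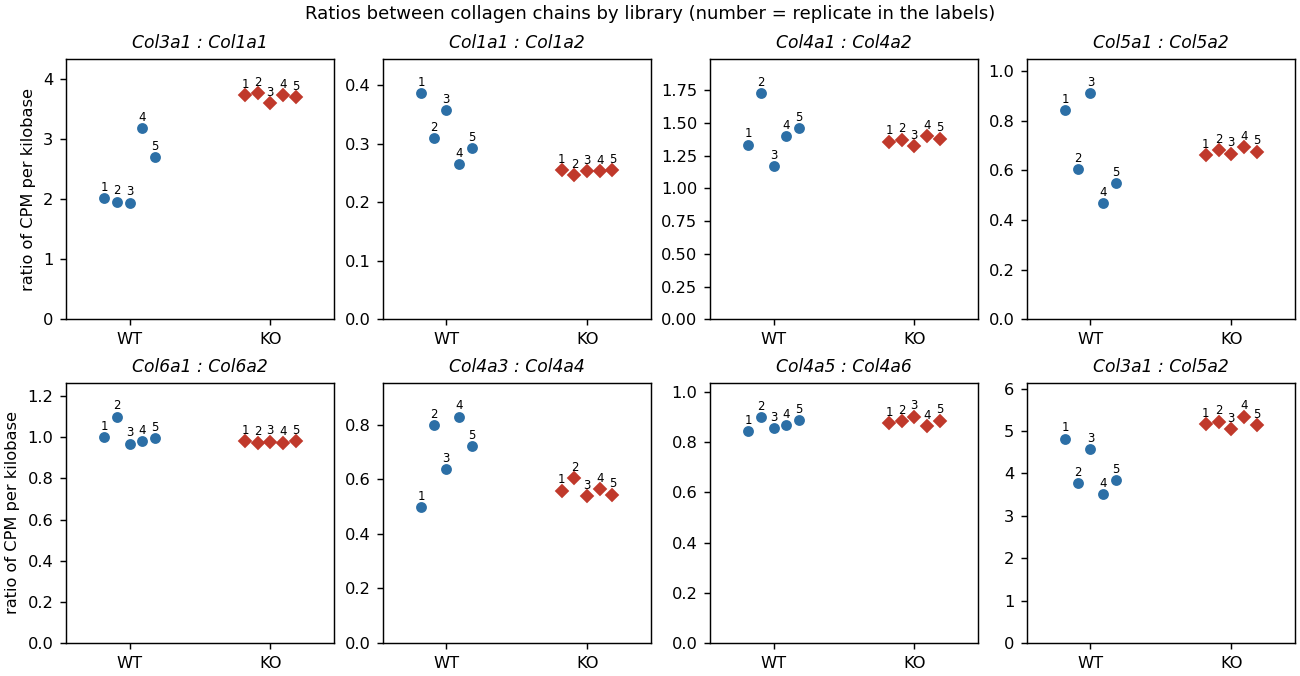
Ratio of CPM per kilobase between collagen chains (linear axes from 0) in each library, with the replicate number beside each point; the last 3 pairs were not tested. Col3a1 : Col1a1 lies at 3.60 to 3.77 in the KO libraries, above every WT library, and Col4a5 : Col4a6 spans only 0.843 to 0.903 over all 10.

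Of 8 network-forming genes tested, Col4a4 and Col8a1 were higher and Col4a1 lower. Col4a1 and Col4a2 encode the chains of the most widespread basement membrane network. Col4a1 was at 576, 567, 559, 589 and 576 CPM in the KO libraries and at 670, 680, 599, 865 and 794 CPM in the WT libraries. Every KO library was below every WT library, with WT replicate 3 only just above. On the log2 scale KO minus WT was -0.33 (SE 0.09, edgeR adjusted p = 0.0282), a fold of 0.794 with a 95% interval of 0.695 to 0.908. With the KO libraries as 1 sample its SE was 0.22 and the adjusted p 0.999. The call also ended when any 1 KO library was left out, with edgeR adjusted p between 0.0610 and 0.0723. The log2 difference stayed at -0.34 to -0.32 in those fits. Over all genes tested, the calls fell from 2242 to between 1287 and 1393. Without WT replicate 5 the log2 difference was -0.30 and the adjusted p 0.0665.

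Its head-to-head partner Col4a2 was at 414, 403, 411, 411 and 407 CPM in the KO libraries and at 490, 384, 499, 602 and 529 CPM in the WT libraries. WT replicate 2 lay below all KO libraries, the other 4 above. KO minus WT came to -0.29 on the log2 scale (SE 0.09, edgeR adjusted p = 0.0614), and without WT replicate 2 it was -0.36 with adjusted p = 0.00208. DESeq2 called it lower at adjusted p = 0.0458. The annotated genes overlap by 22 bases, and no source used here says that counting took account of strand.

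Endothelial markers in the WT libraries varied along with Col4a1. Their sum over 8 genes, none at 0, was 266, 614, 210, 720 and 614 CPM in WT replicates 1 to 5 and 364 to 379 CPM in the KO libraries, and edgeR called 0 of the 8, with 1 at an unadjusted p under 0.05. WT replicate 4 was highest and WT replicate 3 lowest for the endothelial sum and for Col4a1. Col4a2 was instead lowest in WT replicate 2, at 384 CPM. In the KO libraries the endothelial sum was above that of WT replicates 1 and 3, while Col4a1 was below both. Adipocyte markers summed to 193, 172, 100, 872 and 619 CPM in the WT libraries and to 266 to 283 CPM in the KO libraries, with WT replicates 4 and 5 highest. The part of either marker set in the Col4a1 difference was not tested.

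Col4a3 and Col4a4, chains of the network best known from kidney and lung, differed in their calls, and the difference between them was not tested. Col4a4 was at 54.1, 49.96, 51.5, 52.7 and 51.6 CPM in the KO libraries and at 41.4, 41.3, 38.0, 45.04 and 46.5 CPM in the WT libraries. All KO libraries were above all WT libraries. The log2 difference was 0.29 (SE 0.06, edgeR adjusted p = 0.00748), or 1.23-fold with a 95% interval of 1.123 to 1.34, and with the KO libraries as 1 sample its SE was 0.13 and its adjusted p 0.999. Col4a3 was at 23.5 to 25.6 CPM in the KO libraries and at 17.5, 27.9, 20.5, 31.7 and 28.4 CPM in the WT libraries, with a log2 difference of -0.03 (SE 0.14). The Col4a3 to Col4a4 ratio was 0.538 to 0.605 in the KO libraries and ran from 0.4996 in WT replicate 1 to 0.831 in WT replicate 4.

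Col4a5 and Col4a6, which are made together in smooth muscle basement membranes, kept a nearly fixed ratio. Col4a5 was at 215 to 220 CPM in the KO libraries and 189 to 232 CPM in the WT libraries, and Col4a6 at 248 to 255 and 213 to 279 CPM. Their log2 differences were 0.06 (SE 0.05) and 0.04 (SE 0.07). Among WT libraries the coefficient of variation was 7.52% for Col4a5 and 9.99% for Col4a6, but 2.69% for the ratio of the pair. Over the same 5 libraries the Col4a1 to Col4a2 ratio varied by 14.4%, about as much as Col4a1 (14.7%) and Col4a2 (15.7%) did on their own. These are descriptions of 5 libraries. The 1309 bases between the starts of Col4a5 and Col4a6 are many more than the 21 between those of Col4a1 and Col4a2, whose windows are printed above.

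Col8a1, a short-chain collagen of vascular and corneal matrix that forms hexagonal networks, had the largest called difference in the family. It was at 29.0, 28.8, 30.1, 32.5 and 32.4 CPM in the KO libraries and at 13.9, 13.3, 9.98, 27.4 and 22.8 CPM in the WT libraries. WT replicates 4 and 5 came close to the KO range and the other 3 were well below. The log2 difference was 0.80 (SE 0.23, edgeR adjusted p = 0.0440), or 1.75-fold with a 95% interval of 1.22 to 2.50. The spread among WT libraries was 41.8%, where counting error alone would give 5.03%. With the KO libraries as 1 sample the SE was 0.47 and the adjusted p 0.999, and leaving out any 1 KO library gave 0.0789 to 0.0927. The call also ended without WT replicate 1 (edgeR adjusted p = 0.0741), 2 (0.0732) or 3 (0.0514). Without WT replicates 1 and 3 the log2 difference was 0.55. As given for Col4a1, calls over all genes also fell when any 1 KO library was left out. Col8a2, its partner chain, was at 2.29 to 3.23 CPM in the KO libraries and at 1.11 to 4.29 CPM in the WT libraries, where replicates 1 and 3 were highest, while replicate 3 was the lowest WT library for Col8a1. Its log2 difference was 0.26 (SE 0.32, edgeR adjusted p = 0.644).

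All 7 FACIT genes tested had positive log2 differences, from 0.01 for Col9a3 to 0.49 for Col19a1. Of these, 0 passed edgeR's threshold, while 3 had an unadjusted p under 0.05. In the same fit over all 15710 genes tested, 7196 differences were positive and 4629 genes had an unadjusted p under 0.05. DESeq2 called 1 of the 7 FACIT genes, Col14a1. The summed FACIT level was 216 to 225 CPM in the KO libraries and 209, 199, 199, 172 and 177 CPM in the WT libraries, without overlap. Most of that sum was Col14a1, which binds fibril surfaces through decorin. It was at 190, 191, 183, 187 and 186 CPM in the KO libraries and at 178, 179, 163, 142 and 148 CPM in the WT libraries, so that all KO libraries were above all WT libraries. The log2 difference was 0.21 (SE 0.07, edgeR adjusted p = 0.0575), and it was past the threshold without WT replicate 1 or 2, where the adjusted p was 0.0332 and 0.0225. Col12a1, which also decorates type I fibrils, was at 10.7 to 12.2 CPM in the KO libraries and at 6.70, 7.61, 12.5, 13.6 and 12.7 CPM in the WT libraries, a log2 difference of 0.08 (SE 0.18, adjusted p = 0.816). Col16a1 was at 9.91 to 10.8 CPM in the KO libraries and 5.90 to 13.5 CPM in the WT libraries, highest in replicates 1 and 3, a log2 difference of 0.20 (SE 0.20, adjusted p = 0.551). Col19a1 was at 2.92 to 4.10 CPM in the KO libraries and at 2.76, 1.497, 3.44, 2.35 and 2.32 CPM in the WT libraries, with adjusted p = 0.1203, or 0.0374 without WT replicate 3. Col20a1 was at 5.99 to 7.004 CPM and 3.81 to 6.14 CPM, and Col22a1 and Col9a3 were under 1 CPM in every library. The fibroblast marker difference given for Col3a1 stands beside this class too, and its part was not tested.

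Of 5 beaded-filament genes tested, 0 passed edgeR's threshold, and 1 (Col6a1) had an unadjusted p under 0.05. Col6a1 was at 613, 601, 627, 625 and 627 CPM in the KO libraries and at 662, 646, 721, 697 and 672 CPM in the WT libraries, without overlap but with a small gap. The log2 difference was -0.14 (SE 0.05, edgeR adjusted p = 0.0792). DESeq2 called it lower, and so did the edgeR fit without WT replicate 2, at adjusted p = 0.0427. Col6a2, next to Col6a1 on chromosome 10 and joined to it in each type VI monomer, was at 595 to 619 CPM in the KO libraries and 566 to 716 CPM in the WT libraries (log2 -0.09, SE 0.06, adjusted p = 0.344). Col6a3, the long chain of the monomer, was at 413 to 422 CPM in the KO libraries and at 305, 411, 367, 451 and 412 CPM in the WT libraries (log2 0.10, SE 0.09, adjusted p = 0.479). The low-level Col6a5 and Col6a6 had means of 0.933 and 10.8 CPM in the WT group and log2 differences of 0.48 and 0.28, neither past the threshold. Col6a1 had the lowest coefficient of variation among the WT libraries of the 31 genes at 1 CPM or more, 4.37%, against a median of 20.9% and a highest value of 61.9% for Col11a2.

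The multiplexins yield anti-angiogenic fragments from their ends, endostatin in the case of type XVIII. Col18a1, the most abundant collagen per kilobase, was at 1187 to 1235 CPM in the KO libraries and at 1222, 818, 1330, 1515 and 1307 CPM in the WT libraries. WT replicate 2 was far below and WT replicate 4 far above the KO libraries. The group means differed by a log2 of -0.04 (SE 0.13, edgeR adjusted p = 0.879), with a 95% interval in fold of 0.802 to 1.18. Col15a1 was at 255 to 268 CPM in the KO libraries and at 303, 179, 219, 218 and 218 CPM in the WT libraries, where replicate 1 alone was above the KO range. Its log2 difference was 0.21 (SE 0.11, adjusted p = 0.230), and without WT replicate 1 it was 0.35 with adjusted p = 0.00622.

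The remaining classes were at low levels. Col7a1, which makes the anchoring fibrils of skin, was at 2.05 to 2.52 CPM in the KO libraries and 1.41 to 4.09 CPM in the WT libraries, with a log2 difference of -0.14 (SE 0.25). Of the transmembrane collagens, Col23a1 was at 4.51 to 6.58 and 4.78 to 7.97 CPM (log2 -0.24, SE 0.16) and Col13a1 at 0.1197 to 0.790 and 0.0906 to 0.599 CPM (log2 0.90, SE 0.54), and neither passed. Col28a1 was at 1.17 to 2.03 and 0.898 to 1.77 CPM (log2 0.34, SE 0.24).

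The spread among WT libraries ran along certain libraries for many of the collagen genes at once. WT replicate 2 was the lowest WT library for 18 of the 31 genes at 1 CPM or more, while WT replicates 1 and 4 were each the highest for 10. WT replicates 1 and 3, those with the high mitochondrial share, were the top pair of the 5 WT libraries for 12 genes, among them Col1a1, Col1a2, Col5a1, Col15a1, Col16a1 and Col27a1. They were the bottom pair for 4, Col4a1, Col4a3, Col6a3 and Col6a5. The KO mean lay inside the WT range for 23 of the 31 genes and outside it for 8. None of these counts was made over all genes, so they do not show a trait of collagens. Summed over the family, the level was 7649 to 7783 CPM in the KO libraries and 8131, 6797, 8017, 8304 and 7841 CPM in the WT libraries, and the group means of 7743 and 7818 CPM differed by less than the WT spread (SD 595). That difference of -75.4 CPM depended on the libraries and the scaling. It was -331 CPM without WT replicate 2, which left every KO sum below every WT sum, 2.78 CPM without WT replicate 1, 46.2 CPM without WT replicate 4 and 95.2 CPM without WT replicates 1 and 3. Scaling by plain library totals gave 348 CPM.

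Genes that make, carry, bind or degrade collagen were listed in 5 groups, with 43 of 51 tested, 12 higher and 2 lower. That is 27.9% and 4.65%, against 6.84% and 7.43% of all genes tested. When the KO libraries were counted as 1 sample edgeR called 0 of the 43, with a lowest adjusted p of 0.847, and 8 (18.6%) had an unadjusted p under 0.05, against 3.72% of all genes. Among 14 tested genes listed for prolyl and lysyl modification of collagen chains, not all of them enzymes, 3 were higher. These were Colgalt1, which adds galactose to hydroxylysine (91.2 to 116 CPM in the means, log2 0.35, SE 0.05, edgeR adjusted p = 0.000988), P3h2 (log2 0.46, adjusted p = 0.0212) and P3h4 (log2 0.24, adjusted p = 0.04997). The abundant P4hb and Crtap, at 622.5 and 156 CPM in the WT mean, had log2 differences of 0.04 and 0.03. Of 9 folding and export genes, Fkbp14, Sec23a and Sec24d were higher, at log2 differences of 0.35, 0.26 and 0.29, and the last pair are coat proteins of the vesicles that take procollagen out of the endoplasmic reticulum. Creb3l1, a transcription factor of collagen-secreting cells, was lower, at 17.2 to 18.5 CPM in the KO libraries and 24.7 to 39.5 CPM in the WT libraries (log2 -0.83, SE 0.11, adjusted p = 0.000688). Serpinh1, the collagen chaperone HSP47, was at 969 CPM in the KO and 874 CPM in the WT mean (log2 0.15, adjusted p = 0.244), and Sec31a was at 298 and 280.5 CPM (log2 0.09).

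Of 6 genes for propeptide removal 1 was higher: Pcolce, an enhancer of the C-proteinase, at 198 and 165 CPM in the means (log2 0.26, edgeR adjusted p = 0.0304), while the C-proteinase Bmp1 was at 150.1 and 158 CPM (log2 -0.08). Of 8 receptors, Itga11, a fibroblast integrin chain for fibrillar collagen, was at 7.27 to 8.01 CPM in the KO libraries and 2.97 to 4.49 CPM in the WT libraries (log2 1.03, SE 0.12, adjusted p = 0.000329). Lair1, a receptor on leukocytes, was also higher, at 1.66 and 0.534 CPM in the means (log2 1.63, SE 0.27), and lymphocyte markers summed to 276 to 280 CPM in the KO libraries and 8.47 to 26.4 CPM in the WT libraries, with 1 of 7 (Ighm) called also with the KO libraries as 1 sample; their part in the Lair1 difference was not tested. Itga10, a chain known from cartilage, was lower, at 44.3 and 63.8 CPM in the means (log2 -0.53, SE 0.06). Itgb1 and Ddr2, the most abundant receptors, had log2 differences of 0.07 and 0.02. Of 6 genes for breakdown and uptake 3 were higher: Mmp2 (log2 0.33, adjusted p = 0.00890), Mmp9 (log2 0.58, adjusted p = 0.0273) and Ctsk (log2 0.45, adjusted p = 0.00389). Mrc2, an endocytic collagen receptor, was at 78.9 and 71.6 CPM (log2 0.14).

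Markers of other tissues that could come with a dissected aorta gave further differences. Cartilage markers summed to 168 to 178 CPM in the KO libraries and 125.7 to 161 CPM in the WT libraries, with Comp higher of 5 tested, and the defining genes Cnmd and Matn1 had means under 0.1 CPM in both groups. Haemoglobin and other red cell genes summed to 19.2 to 21.3 CPM in the KO libraries and 65.8 to 327 CPM in the WT libraries, with 5 of 5 lower. Macrophage markers overlapped at 245 to 254 and 166 to 273 CPM, with 2 of 6 higher. Striated muscle markers overlapped, at 23.1 to 26.5 and 6.46 to 77.7 CPM. So did epithelial and mesothelial markers, at 10.5 to 12.5 and 9.29 to 14.2 CPM, with 1 of 2 tested higher. Over all genes tested in the fit of 5 against 5, 6.84% were higher and 7.43% lower. When the KO libraries were summed, edgeR called 0 genes of the cartilage, red cell, macrophage, striated muscle and epithelial lists, with 1, 4, 2, 0 and 1 at an unadjusted p under 0.05. The part of these markers in the collagen differences was not tested.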

How the data were processed

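Each library's deposited table holds whole-number read counts per gene, made by the authors. An aligner, Bowtie 0.12.2, is listed beside builds mm8 and mm9 per the submitters' processing notes; how reads were counted, with which strand setting and which annotation, is not given in the sources used here. A TruSeq kit and 1 ug of RNA per library were used, per the labels' protocols. Of the 35667 gene identifiers 35562 were found in GENCODE M21, including all 44 collagens, which gave transcript lengths, exons and coding frames. Levels are in CPM, with library totals scaled by TMM factors.

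Tests were run with edgeR 4.0.16 (R 4.3.3; TMM, filterByExpr with a minimum count of 10 and a minimum total of 15, glmQLFit with robust estimation) on all 15710 genes that passed the filter, with Benjamini-Hochberg adjustment at 0.05. Intervals are 95%. The fits were tested on simulated data with the same spread in both groups, so that check does not cover the unequal spread found here. Ratios between chains were tested by exact permutation (SciPy 1.17.1). DESeq2 1.42.0, other scalings and filters, a replicate block and leaving libraries out were the alternatives. Collagens at 1 CPM or more may be given per library; those past the threshold and the 3 most abundant of each class are given in full, as are the called and the 2 most abundant genes of each pathway list. The members, classes and lists were chosen with earlier results of these data known. A further marker list is not reported here.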

Additional observations from a re-analysis of the deposited data

Results flagged for a closer look

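In groups of 5 libraries, 74 sets of values were examined for a library whose gap to its nearest neighbour was large against the whole range, and 3 were found, where chance gives about 1 in 20. Col4a5 was at 214.5 CPM in KO replicate 4 and at 219 to 220.3 CPM in the other 4 KO libraries, a gap of 0.779 of the range. The Col1a1 to Col1a2 ratio was 0.246 in KO replicate 2 and 0.253 to 0.255 in the other 4, a gap of 0.775 of the range. Both gaps are small against the WT spread. In WT replicate 2 the Col6a1 to Col6a2 ratio was 1.100, above the 0.969 to 1.00 of its group, a gap of 0.763 of the range. WT replicate 2 was also the lowest WT library for 18 of 31 collagen genes, a count that was not made over all genes.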

How the results depend on the processing

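The 3 collagens higher and 1 lower became 0 and 0 with the KO libraries as 1 sample, and 11 and 2 without WT replicates 1 and 3. Over leaving out each library in turn they were 2 to 4 and 0 to 3, and DESeq2 gave 3 lower. Col3a1 and Col4a4 kept their call in 18 of 19 settings each, Col4a1 in 12 and Col8a1 in 8. The 2242 genes called became 1319 with a replicate block, 7 with the KO libraries as 1 sample, 4386 without WT replicates 1 and 3, and 1287 to 2678 leaving out 1 library. The 7 became 1 to 5 leaving out 1 WT library and 13 without WT replicates 1 and 3, alternatives chosen after seeing the data. The 14 pathway genes became 0 with the KO libraries as 1 sample and 9 to 16 leaving out 1 library. Upper-quartile scaling gave 1319 higher and 741 lower genes, where TMM gave 1075 and 1167, with the same 4 collagens. Leaving out 1 KO library gave 1287 to 1393 genes called, and leaving out 1 WT library gave 1764 to 2678.

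Whether the shared numbers pair KO and WT libraries could not be decided. Correlations of same-numbered deviations were -0.04 to 0.07, but the KO libraries deviate little beyond counting error, so a pairing could hardly show there. The block kept the same 4 collagen calls, which does not decide it either. In the block the Col3a1 to Col1a1 and Col1a1 to Col1a2 ratios were 0.68 and -0.34 (log2) with adjusted exact p = 0.156, where 5 pairs allow no p below 0.0625 before adjustment. With the KO libraries as 1 sample they were 0.68 and -0.34, where 1 against 5 allows no exact p below 0.167, so neither setting could pass the threshold. Without WT replicates 1 and 3 they were 0.53 and -0.19, and the Col4a1 to Col4a2 and Col5a1 to Col5a2 ratios were -0.16 and 0.33. Without WT replicate 2 the first was 0.030, and without WT replicates 4 and 5 in turn the second was -0.073 and -0.015; leaving out 1 library, they ran over -0.11 to 0.03 and -0.07 to 0.17. Col18a1 was 0.0024 with upper-quartile scaling, 0.013 with no filter, 0.046 without WT replicate 4 and 0.0087 without WT replicates 1 and 3, with a leave-one-out range of -0.14 to 0.046. Col1a2 was -0.0077 without WT replicate 4 and -0.0020 without WT replicate 5, in a range up to 0.065. The cause of these changes was not tested.

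Depth limits the 9 untested collagens, which had at most 17 counts. Intervals per gene rest on 5 libraries a group at most, the labels do not say whether the KO libraries share a source, and the WT spread includes the libraries with a high mitochondrial share.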
